A study of Mus musculus with 6 samples.

Results

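Collagens are the proteins of the extracellular matrix fibres and sheets that hold a tissue together, and each collagen chain has a gene of its own. Here the collagen family was every gene whose name in the array's annotation was Col, a number, the letter a and a number, on spots that were not controls. The rule found 43 collagen genes of 34741 genes with a probe, measured by 68 of 55681 probes. They comprised 11 fibrillar collagens, 6 type IV collagens and 26 other collagens. The spleens were those of B10.BALB-16.C2A mice, a congenic strain by the title of the series. One group had received total body irradiation of 900 cGy from an X-ray irradiator and was sampled 24 h later, and the other consisted of resting mice given 0 cGy. Sex and age were not given in the sources used here. RNA came from homogenised whole spleen cells, each array held RNA pooled from 3 mice, and 3 arrays at 900 cGy were compared with 3 arrays at 0 cGy. The p-values therefore measure the spread between pools and not between mice.

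A collagen chain consists largely of repeats of glycine followed by a pair of other amino acids, which lets 3 chains wind into a helix. Fibrillar collagens assemble into the fibres that carry tension, type IV collagens into the sheets of basement membranes, and other members coat fibres, link them, form beaded filaments or cross the cell membrane. In the spleen, reticular fibres made by fibroblastic reticular cells guide lymphocytes through the white pulp, and basement membranes surround its vessels and sinuses. The repeat can be read in the array itself. The Col15a1 probe, at chr4:47283786-47283845 on the plus strand of mm9, carried an unbroken run of it and is shown for that reason, with its glycine codons, 1 in every 3 codons, in capitals.

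Col15a1 probe: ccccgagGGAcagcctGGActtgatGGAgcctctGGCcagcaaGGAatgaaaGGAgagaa

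Such an unbroken run, 6 glycine codons spaced in this way in a reading frame of the probe, was found in 2 of 68 collagen probes (2.94%) and in 5 of 55613 other probes (0.00899%).

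Values are given as log2 of the Agilent processed signal over the 75th percentile of that array, so that 1 unit is a 2-fold difference and 0 is the array's 75th percentile. Levels are compared only within a probe. The 6 arrays shared 1 slide and 1 scan. Their 75th percentiles lay between 1114 and 1182 intensity units at 900 cGy and between 1152 and 1403 at 0 cGy, and 39036 to 39979 and 39630 to 41267 probes were well above background in the same order of groups. Precision is limited by there being 6 arrays. The slide's first row held irradiated array 1 and all 3 unirradiated arrays, and its second row held irradiated arrays 2 and 3. A gene was tested with limma where its probe passed a filter on dim signal, that is, reached Agilent's flag for a signal well above background on the 3 arrays of one dose or the other. This held for 26642 genes and 37 of the 43 collagens. The remaining 6 collagens (Col2a1, Col11a1, Col24a1, Col9a3, Col10a1 and Col28a1) were not well above background on any of the 6 arrays. Markers of B cells (6 of 6), T cells (6 of 6) and macrophages (8 of 8), which define the labelled tissue, all passed this filter.

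Collagen transcripts were mostly higher in irradiated spleen. Of the 37 tested collagens, 27 rose (73%), 3 fell (8.11%) and 7 did not pass the test (limma, Benjamini-Hochberg adjusted over all genes tested), where 28.3% of all genes tested rose and 31.0% fell. The median log2 change of the collagens was 1.06, with quartiles of 0.40 and 1.36, beside a median of -0.06 and quartiles of -0.49 and 0.47 over all genes tested. By class, 6 of 8 fibrillar, 3 of 6 type IV and 18 of 23 other collagens rose, with median log2 changes of 1.11, 0.63 and 1.24. Of the 27, 20 were between 2-fold and 3-fold, 5 were below 2-fold and 2 were above 3-fold, and their log2 changes had quartiles of 1.05 and 1.41. Over all genes that rose, the quartiles were 0.59 and 1.45. At least 2-fold higher were 22 collagens and at least 2-fold lower 1, beside 14.2% and 9.34% of all genes tested. The 1 lower was Col6a6, whose irradiated signals were too dim to give the size of its fall. Set against the dimmest signals that passed the background flag, its fall was at least 1.93-fold, so 2-fold was not established. All 3 irradiated arrays lay above all 3 unirradiated arrays for 28 collagens and below them for 3, which holds for 31.7% and 35.7% of all genes tested.

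With slide row as a block, 26 collagens rose and 2 fell, beside 21.3% and 23.6% of all genes tested. The second row held no unirradiated array, so the block fit took each change from irradiated array 1 against the 3 unirradiated arrays. The median log2 change of the collagens was 1.20 in the block fit and in the first row alone. Within the first slide row alone, where 1 irradiated array faced 3 unirradiated arrays, 23 rose and 1 fell, beside 16.5% and 14.0% of all genes tested. The rises that did not pass there were those of Col6a5 (log2 change 0.83, adjusted p = 0.0923), Col13a1 (2.35, 0.0706), Col17a1 (0.63, 0.102) and Col20a1 (0.76, 0.0508). Scaling on the spike-in controls in place of the 75th percentile lowered the median of all genes to -0.34, and 18.0% of them then rose and 40.6% fell. On that scale 27 collagens rose and 5 fell, with a median log2 change of 0.78, and Col5a1, Col4a4 and Col9a1, which did not pass on either scale, had changes of opposite sign (-0.08, -0.03 and -0.09). Of the 37 tested collagens, 4 (Col13a1, Col4a3, Col6a6 and Col19a1) were not well above background on every array; with such genes left out of the whole fit, 26 rose and 2 fell, beside 28.4% and 31.8% of all genes tested. Normexp background correction, which adds an offset of 50 intensity units, gave smaller rises for 5 dim probes, with log2 changes of 0.57 for Col13a1, 0.64 for Col8a1, 0.50 for Col15a1, 0.58 for Col6a5 and 0.34 for Col17a1, all still past the threshold. In RNA of a whole organ, fewer cells of a type and less RNA per cell cannot be told apart.

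**Figure D1:**
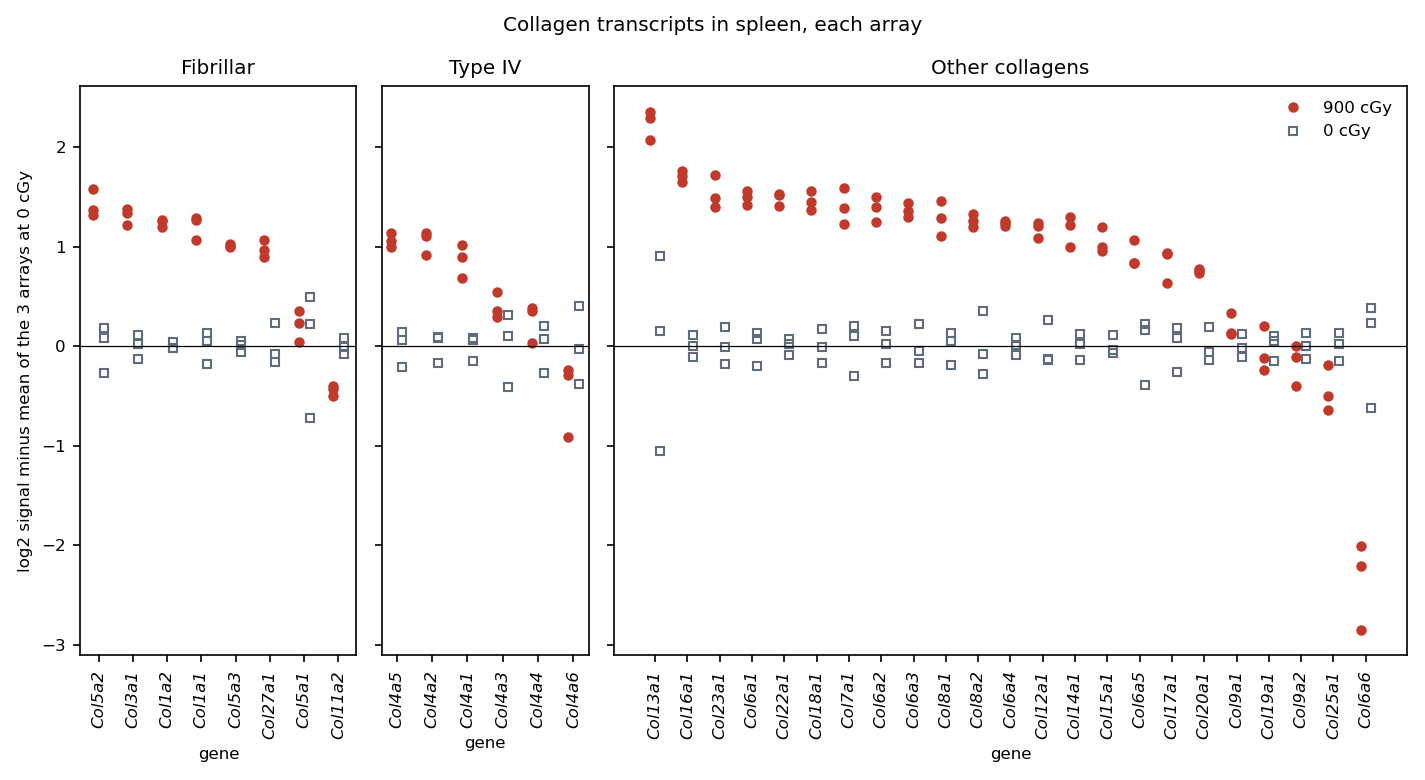
Log2 signal of each tested collagen on each array minus the mean of its 3 unirradiated arrays (y axis), by gene and class (x axis), with filled circles for 900 cGy and open squares for 0 cGy. The circles lie above all squares for 28 genes and below all of them for Col11a2, Col25a1 and Col6a6.

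The main fibrillar collagens of interstitial fibres rose. Col1a2, the second chain of type I collagen (probe chr6:4490619-4490678, plus strand, mm9), had log2 signals of 6.59, 6.58 and 6.53 in irradiated spleen, against 5.30, 5.31 and 5.37 in unirradiated spleen. Its log2 change was 1.24 ± 0.07 (SE, n = 3 pools per group, 95% interval 1.06 to 1.42), a 2.36-fold rise with an adjusted p of 7.12e-05 (limma). The groups were far apart, with less than 0.1 between arrays of a group. Col1a1, the first chain of type I collagen (chr11:94813115-94813174, plus strand), had 4.51, 4.50 and 4.30 in irradiated and 3.28, 3.05 and 3.35 in unirradiated spleen. It rose 2.31-fold (log2 change 1.21 ± 0.12, adjusted p = 0.000265). The log2 changes of the 2 chains differed by 0.03, less than either standard error. Col3a1, the type III chain that is abundant in reticular fibres (chr1:45405589-45405648, plus strand), had 4.999, 4.96 and 4.84 in irradiated spleen, against 3.64, 3.497 and 3.73 in unirradiated spleen. It rose 2.48-fold (log2 change 1.31 ± 0.10, adjusted p = 0.000116), and no irradiated array overlapped an unirradiated one.

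Type V collagen is built into type I fibrils and sets their width. Its Col5a2 chain (chr1:45431204-45431263, minus strand, beside Col3a1) had -1.86, -1.60 and -1.80 in irradiated and -3.44, -3.09 and -2.99 in unirradiated spleen. This was a 2.67-fold rise (log2 change 1.42 ± 0.14, adjusted p = 0.000331). Col5a3 (chr9:20574592-20574651, minus strand) had 0.27, 0.24 and 0.24 in irradiated spleen, against -0.72, -0.82 and -0.75 in unirradiated spleen, a 2.02-fold rise (adjusted p = 0.000116). Both chains were separated between the groups. Col5a1, the chain common to most type V molecules (chr2:27892892-27892951, plus strand), was not. It had 1.95, 1.83 and 1.65 in irradiated and 2.10, 1.83 and 0.88 in unirradiated spleen. Its log2 change was 0.21 ± 0.31 (95% interval -0.54 to 0.95, adjusted p = 0.592), and unirradiated array 3 set its spread. Without that array the log2 change was -0.15 (adjusted p = 0.364). The change was 0.46 without unirradiated array 1 (adjusted p = 0.244) and 0.32 without unirradiated array 2 (adjusted p = 0.5). The change of Col5a1 was lower than that of Col5a2 by 1.21 on the log2 scale, a pair chosen after the values were seen and not tested.

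The cartilage-type fibrillar collagens divided. Col27a1, a fibrillar chain of cartilage and other tissues (chr4:62995485-62995544, plus strand), had -0.79, -0.62 and -0.72 in irradiated and -1.84, -1.76 and -1.45 in unirradiated spleen. It rose 1.97-fold (log2 change 0.98 ± 0.12, adjusted p = 0.000808). Col11a2, a chain of the type XI fibrils of cartilage (chr17:34203113-34203172, plus strand), had -1.92, -1.82 and -1.85 in irradiated spleen, against -1.495, -1.42 and -1.33 in unirradiated spleen. It fell 1.36-fold (log2 change -0.45 ± 0.08, 95% interval -0.65 to -0.24, adjusted p = 0.00414), with all irradiated arrays below all unirradiated ones. In the first slide row alone the log2 change was -0.50 and did not pass (adjusted p = 0.0856). Col2a1, Col11a1 and Col24a1, the other cartilage and bone fibril chains, were not well above background.

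The sequences just before the starts of these genes are shown because Col1a2 and Col3a1 rose by similar amounts. They are the 250 bases before each start in RefSeq (GRCm38.p6), 5′ to 3′ on the strand of the gene, with capitals marking the CCAAT box (searched as CCAAT), the GC box (searched as GGGCGG) and the TATA box (searched as TATAAA), on either strand. The window of Col1a2 is chr6:4505368-4505617 (plus strand) and that of Col3a1 chr1:45311288-45311537 (plus strand).

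Col1a2: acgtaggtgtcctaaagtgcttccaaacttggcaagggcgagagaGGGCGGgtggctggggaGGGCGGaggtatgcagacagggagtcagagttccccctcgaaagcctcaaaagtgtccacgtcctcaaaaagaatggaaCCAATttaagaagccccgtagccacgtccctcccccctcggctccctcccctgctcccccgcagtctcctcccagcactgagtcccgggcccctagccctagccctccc

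Col3a1: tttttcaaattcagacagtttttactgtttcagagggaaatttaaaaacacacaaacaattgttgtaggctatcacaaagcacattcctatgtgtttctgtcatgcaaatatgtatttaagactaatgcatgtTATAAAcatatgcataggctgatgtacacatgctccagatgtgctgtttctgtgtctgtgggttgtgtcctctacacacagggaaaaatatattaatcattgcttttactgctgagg

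Col1a2 held CCAAT at 109 to 105 bases before its start and GGGCGG at 205 to 200 and at 188 to 183 bases before it. Col3a1 held TATAAA at 117 to 112 bases before its start and neither of the others. RefSeq promoters were matched for 35 of the 43 collagens, 38 promoters in all. CCAAT was present, on either strand, in 34.2% of them and in 33.8% of all 32851 promoters, and TATAAA in 13.2% and 12.4%. GGGCGG was present in 57.9% of collagen promoters and 32.7% of all promoters. Among promoters of collagens that rose it was in 62.5%, and among promoters of all genes that rose in 51.2%. No letter of a printed match belonged to more than 1 motif.

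Type IV collagens rose for the chains of common basement membranes. Col4a1 and Col4a2, whose product forms the sheet under nearly every vessel, are transcribed in opposite directions on chromosome 8 from starts that cross, so that the genes overlap by 22 bases (RefSeq, GRCm38.p6). Col4a1 (probe chr8:11199009-11199068, minus strand, mm9) had 3.34, 3.23 and 3.01 in irradiated and 2.42, 2.18 and 2.40 in unirradiated spleen. It rose 1.82-fold (log2 change 0.86 ± 0.12, adjusted p = 0.00119). Col4a1 was printed on 10 spots of each array, and the SD between its spots was 0.0445 to 0.0712, so the spread between pools was the larger error. Col4a2 (chr8:11448840-11448899, plus strand) had 3.85, 3.87 and 3.66 in irradiated spleen, against 2.83, 2.57 and 2.82 in unirradiated spleen. It rose 2.08-fold (log2 change 1.06 ± 0.11, adjusted p = 0.000382). Both chains were highest in irradiated spleen on every array, and their changes differed by 0.19 on the log2 scale, which was not tested.

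Col4a3 and Col4a4 are chains of the kidney glomerular membrane. Col4a3 (chr1:82717775-82717834, plus strand) had -5.77, -5.51 and -5.71 in irradiated and -5.75, -6.47 and -5.96 in unirradiated spleen, and was well above background on 3 irradiated and 2 unirradiated arrays. Its log2 change was 0.40 ± 0.19 (95% interval -0.07 to 0.86, adjusted p = 0.122), and 0.55 without unirradiated array 1 (adjusted p = 0.0493). Col4a4 (chr1:82447879-82447938, minus strand) had -3.28, -2.93 and -2.95 in irradiated spleen, against -3.24, -3.59 and -3.11 in unirradiated spleen. Its log2 change was 0.26 ± 0.16 (95% interval -0.13 to 0.64, adjusted p = 0.212). The groups overlapped for both genes.

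Col4a5 and Col4a6 encode the chains of another kind of type IV collagen and are neighbours on the X chromosome, transcribed away from each other. Col4a5 (chrX:138123547-138123606, plus strand) had -0.83, -0.70 and -0.78 in irradiated and -1.77, -2.04 and -1.69 in unirradiated spleen. It rose 2.09-fold (log2 change 1.06 ± 0.11, adjusted p = 0.000415). Col4a6 gave different answers with its 2 probes. The brighter probe (chrX:137601433-137601491, minus strand), which stood for the gene, had -3.01, -2.34 and -2.39 in irradiated spleen, against -2.47, -1.69 and -2.12 in unirradiated spleen. Its log2 change was -0.48 ± 0.26 (95% interval -1.11 to 0.14, adjusted p = 0.153), and the groups overlapped. The other probe (chrX:137599990-137600049) had -2.47, -2.11 and -2.23 in irradiated and -3.84, -3.81 and -3.67 in unirradiated spleen, with no overlap. It rose 2.84-fold (log2 change 1.51 ± 0.12, adjusted p = 0.000147 over all probes tested). The mean over both probes gave a log2 change of 0.51 (adjusted p = 0.0403), of the opposite sign to the brighter probe, and spike-in scaling made the brighter probe's fall pass (-0.77, adjusted p = 0.00434). Which exon each probe lies in was not analysed here. The upstream sequences of this pair are shown because their probes did not move alike. The Col4a5 window is chrX:141475169-141475418 (plus strand) and the Col4a6 window chrX:141474077-141474326 (minus strand), from RefSeq (GRCm38.p6) and with the same capitals.

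Col4a5: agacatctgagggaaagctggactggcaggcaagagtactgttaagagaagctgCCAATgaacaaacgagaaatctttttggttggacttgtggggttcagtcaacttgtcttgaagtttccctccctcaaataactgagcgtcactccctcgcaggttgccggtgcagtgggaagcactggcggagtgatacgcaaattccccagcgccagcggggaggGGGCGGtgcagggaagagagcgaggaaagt

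Col4a6: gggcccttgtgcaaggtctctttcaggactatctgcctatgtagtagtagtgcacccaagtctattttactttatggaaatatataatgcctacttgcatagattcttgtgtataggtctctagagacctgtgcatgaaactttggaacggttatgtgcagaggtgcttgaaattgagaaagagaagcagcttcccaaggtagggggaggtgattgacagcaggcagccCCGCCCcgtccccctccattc

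Col4a5 held CCAAT at 196 to 192 and GGGCGG at 30 to 25 bases before its start, and Col4a6 held the reverse complement of GGGCGG at 21 to 16 bases before its start.

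**Figure D2:**
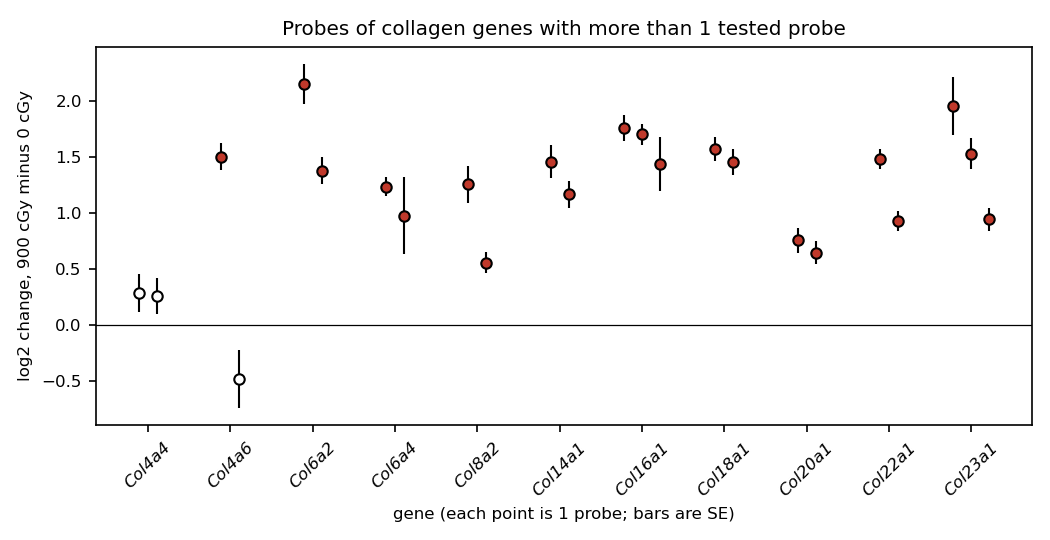
Log2 change, 900 cGy minus 0 cGy, of each tested probe (points, filled where the probe passed the test; bars are SE) of the collagen genes with more than 1 tested probe (x axis). In 9 of 11 genes all probes rose, the Col4a4 probes did not pass, and the Col4a6 probes lie on opposite sides of 0.

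Across the family, 50 of the 68 probes were tested in a fit over all probes. Of these, 39 rose, 3 fell and 8 did not pass, beside 26.4% and 31.0% of all probes tested. Probes that agreed in direction could still disagree in size. The 2 probes of Col8a2 had log2 changes of 1.26 and 0.56. The 3 probes of Col23a1 had 1.53, 0.95 and 1.96.

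Multiplexin collagens, which sit in basement membranes, both rose. Col18a1, the source of the fragment endostatin (chr10:76514926-76514985, minus strand), had 2.65, 2.54 and 2.46 in irradiated and 0.92, 1.08 and 1.27 in unirradiated spleen. It rose 2.75-fold (log2 change 1.46 ± 0.11, adjusted p = 0.000133). Col15a1, whose probe is printed above, had -3.58, -3.78 and -3.82 in irradiated spleen, against -4.66, -4.81 and -4.85 in unirradiated spleen. It rose 2.07-fold (log2 change 1.05 ± 0.10, adjusted p = 0.000283). Neither gene's groups overlapped.

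Type VI collagens form beaded filaments between fibres and cells, and 5 of 6 rose. Col6a1 (chr10:76171538-76171597, minus strand) had 3.87, 3.73 and 3.81 in irradiated and 2.45, 2.12 and 2.38 in unirradiated spleen, a 2.81-fold rise (log2 change 1.49 ± 0.11, adjusted p = 0.000118). Its partner Col6a2 (chr10:76058931-76058990, minus strand) had 0.72, 0.62 and 0.46 in irradiated spleen, against -0.63, -0.95 and -0.76 in unirradiated spleen, a 2.60-fold rise (adjusted p = 0.00018). Col6a3, the longest of the common chains (chr1:92663663-92663722, minus strand), had 2.46, 2.38 and 2.32 in irradiated and 0.97, 0.85 and 1.25 in unirradiated spleen, a 2.57-fold rise (adjusted p = 0.000206). At these probes the changes of the 3 chains lay within 0.13 of each other on the log2 scale. The other tested probe of Col6a2 had a larger log2 change, 2.15.

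Col6a4, Col6a5 and Col6a6 encode chains that can take the place of Col6a3 and are neighbours on chromosome 9. Col6a4 (chr9:105893016-105893075, minus strand) had -0.13, -0.10 and -0.08 in irradiated and -1.43, -1.34 and -1.26 in unirradiated spleen, a 2.36-fold rise (adjusted p = 8.81e-05). Col6a5 had -2.79, -2.56 and -2.80 in irradiated spleen, against -3.40, -4.02 and -3.47 in unirradiated spleen, a 1.88-fold rise (adjusted p = 0.00521). With slide row as a block its log2 change was 0.83 (adjusted p = 0.055). Col6a6, the last of the row (chr9:105676597-105676655, minus strand), went the other way. It had -7.36, -7.16 and -7.997 in irradiated and -4.77, -4.91 and -5.77 in unirradiated spleen, so that the groups did not overlap, and no irradiated array had it well above background. The means were -7.51 ± 0.44 in irradiated and -5.15 ± 0.54 in unirradiated spleen (SD, n = 3 pools each), and the adjusted p was 0.00115. Set against the dimmest signal that was well above background on each irradiated array, or its own signal where that was higher, Col6a6 was at least 1.93-fold lower. With normexp background correction its log2 change was -0.40 (adjusted p = 0.0581).

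FACIT collagens, which decorate the surface of fibrils, rose in 5 of 8 tested members. Col16a1, found at the edge of fibrils and near basement membranes (chr4:129776333-129776392), had 4.04, 3.99 and 3.93 in irradiated and 2.28, 2.17 and 2.39 in unirradiated spleen. It rose 3.26-fold (log2 change 1.71 ± 0.09, adjusted p = 5.98e-05), and its other 2 probes had log2 changes of 1.76 and 1.44. Col22a1, known from tissue junctions such as that of muscle and tendon (chr15:71699345-71699404), had -0.93, -0.82 and -0.80 in irradiated spleen, against -2.43, -2.32 and -2.26 in unirradiated spleen, a 2.80-fold rise (adjusted p = 6.94e-05). At the probes given by array, Col16a1 and Col22a1 were both separated between the groups by more than 1 log2 unit. The other tested probe of Col22a1 had a smaller log2 change, 0.93. Col14a1, which binds type I fibrils (chr15:55352264-55352323), had 4.40, 4.31 and 4.09 in irradiated and 2.96, 3.12 and 3.22 in unirradiated spleen, a 2.25-fold rise (adjusted p = 0.000321). Its relative Col12a1 (chr9:79446895-79446954) rose 2.26-fold (adjusted p = 0.000456) and Col20a1 (chr2:180752070-180752129) 1.69-fold (adjusted p = 0.00124). The FACIT members that did not pass were Col9a1 (log2 change 0.20, 95% interval -0.05 to 0.45), Col9a2 (-0.17, -0.49 to 0.15) and Col19a1 (-0.05, -0.40 to 0.29). On the spike-in scale Col9a2 passed as a fall (log2 change -0.45, adjusted p = 0.0486). Type IX chains cover the fibrils of cartilage.

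The chains of type VIII collagen, which forms hexagonal nets under endothelium, both rose. Col8a1 (chr16:57624471-57624530) had -3.46, -3.81 and -3.63 in irradiated and -5.10, -4.78 and -4.86 in unirradiated spleen, a 2.43-fold rise (adjusted p = 0.000352). Col8a2 (chr4:125991441-125991500) had 2.06, 2.13 and 1.99 in irradiated spleen, against 0.52, 0.73 and 1.15 in unirradiated spleen, a 2.39-fold rise (adjusted p = 0.00092). Col7a1, the anchoring fibril of skin (chr9:108886861-108886920), had 3.45, 3.81 and 3.61 in irradiated and 1.92, 2.32 and 2.42 in unirradiated spleen, a 2.65-fold rise (adjusted p = 0.000549). In all 3 genes the groups did not overlap.

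Transmembrane collagens, which are anchored in the cell membrane, rose in 3 of 4 members. Col23a1 (chr11:51396885-51396944) had -0.62, -0.39 and -0.71 in irradiated and -2.12, -2.29 and -1.92 in unirradiated spleen, a 2.89-fold rise (adjusted p = 0.000191). Col17a1, a component of the hemidesmosomes of skin, had -4.82, -4.53 and -4.52 in irradiated spleen, against -5.72, -5.37 and -5.28 in unirradiated spleen, a 1.78-fold rise (adjusted p = 0.00344). Col13a1 had a log2 change of 2.24 with the widest interval of the 37 collagens (95% interval 1.13 to 3.36, adjusted p = 0.0061). It had -4.36, -4.42 and -4.64 in irradiated and -6.57, -7.76 and -5.81 in unirradiated spleen, and was well above background on 3 irradiated arrays and 1 unirradiated array. Over the alternatives its log2 change ranged from 0.54 to 2.69, and with normexp background correction it was 0.57, below the 1.70 of Col16a1. Col25a1, found with the plaques of Alzheimer disease (chr3:129885684-129885743), had -5.43, -5.88 and -5.75 in irradiated spleen, against -5.11, -5.23 and -5.40 in unirradiated spleen. Its fall was small (log2 change -0.44 ± 0.14, adjusted p = 0.0368) and did not pass in 10 of 17 alternatives, over which it ranged from -0.73 to -0.04.

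**Figure D3:**
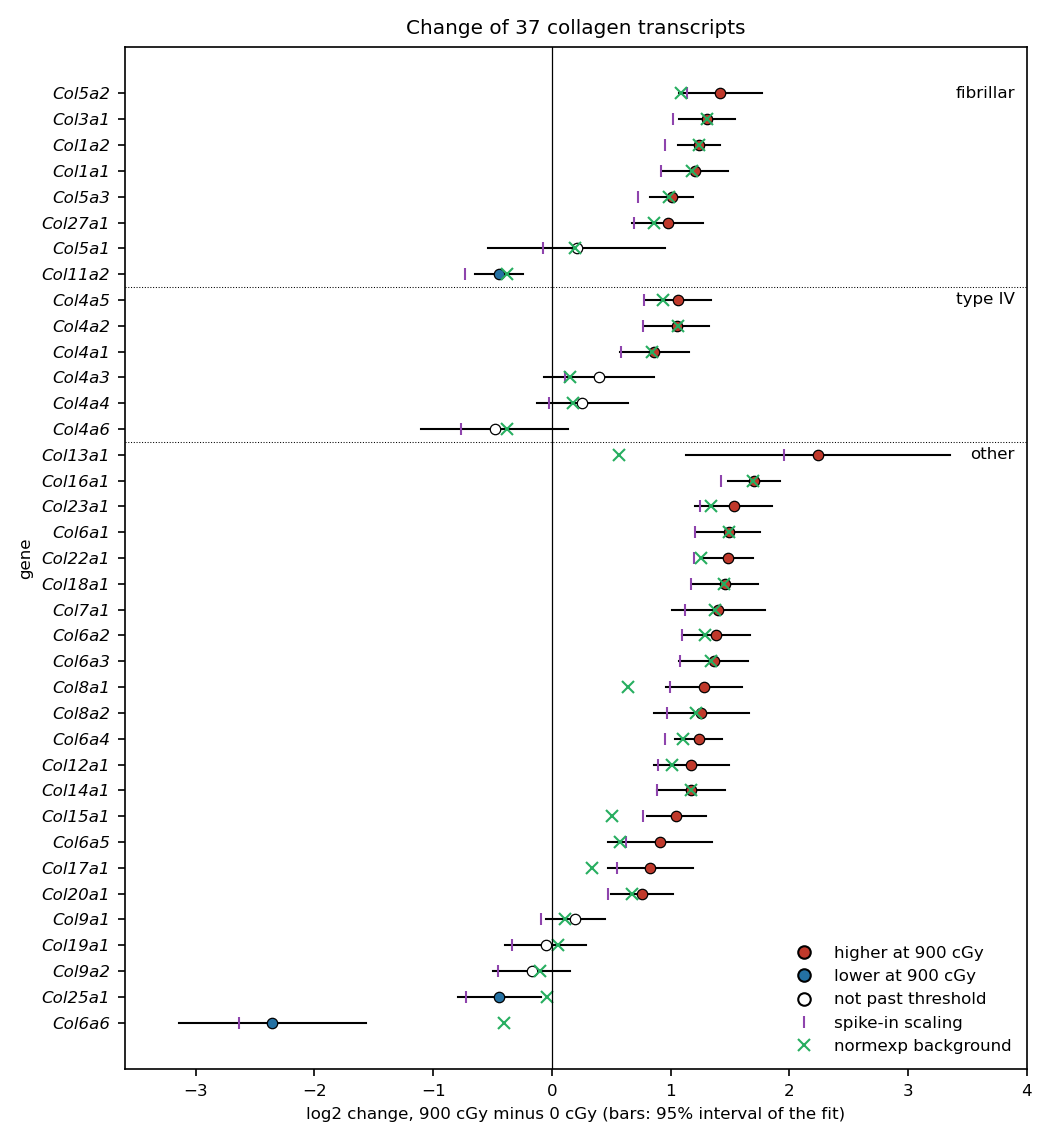
Log2 change, 900 cGy minus 0 cGy, of the 37 tested collagens (x axis) by gene (y axis), with the 95% interval of the fit as bars; red, blue and white points rose, fell or did not pass, upright ticks are spike-in scaling and crosses normexp background correction. The intervals of the 27 genes that rose lie above 0, those of the 3 that fell lie below it, and those of Col13a1 and Col6a6 are the widest.

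Genes that act on collagen were counted in 6 lists, which held 73 tested genes. Among genes of collagen synthesis and export, 17 of 20 rose and none fell, with a median log2 change of 1.29, where 28.3% of all genes tested rose. Serpinh1, the collagen chaperone HSP47, had 3.95, 3.78 and 3.65 in irradiated and 1.92, 1.93 and 2.22 in unirradiated spleen, a 3.42-fold rise (adjusted p = 0.000102). P3h4, a partner of the lysyl hydroxylases, rose 3.42-fold, and the lysyl hydroxylase Plod1 rose 3.15-fold. P4ha3 (0.60), Mia3 (0.00) and P3h1 (-0.32, adjusted p = 0.148) did not pass; their log2 changes are in parentheses. P4ha3 passed without irradiated array 1 (0.85, adjusted p = 0.00677) and P3h1 without unirradiated array 3 (-0.49, adjusted p = 0.0102), and the mean over the probes of P3h1 had the opposite sign (0.43, adjusted p = 0.0375). On the spike-in scale 14 rose and 1 fell, beside 18.0% and 40.6% of all genes tested. Of genes that trim procollagen or crosslink it, 10 of 12 rose and none fell, with a median of 1.29. The procollagen enhancer Pcolce2 rose 4.14-fold, the lysyl oxidase relative Loxl3 rose 3.35-fold, and the procollagen N-proteinase Adamts2 rose 3.16-fold. Tll1 and Adamts3 had log2 changes of 0.28 and -1.56 (adjusted p = 0.061 for Adamts3) and did not pass. Adamts3 passed with slide row as a block (-2.88, adjusted p = 0.00544) and without irradiated array 2 (-1.9996, adjusted p = 0.0343). It was dim, with -7.48, -5.28 and -5.71 in irradiated spleen, and was well above background on 2 irradiated arrays. The block fit took its change from irradiated array 1, the lowest of these values.

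Proteins that bind finished fibrils rose in 8 of 8 cases, with a median log2 change of 1.46, where 28.3% of all genes tested rose. Lum, the proteoglycan lumican, had -0.38, -0.20 and -0.44 in irradiated and -2.97, -2.80 and -2.86 in unirradiated spleen, a 5.80-fold rise. Decorin (Dcn) rose 4.03-fold and thrombospondin 2 (Thbs2) 3.30-fold. Of the basement membrane genes that are not collagens, 13 of 16 rose, with a median of 1.47. The laminin chains Lama2 and Lama4 rose 3.38-fold and 3.21-fold, and the linker nidogen Nid2 rose 3.12-fold. Lamb3, a chain of the laminin of epithelial basement membranes, fell (log2 change -0.59, adjusted p = 0.0182). It did not pass without irradiated array 1 (adjusted p = 0.0511), irradiated array 3 (0.0651) or unirradiated array 2 (0.0565), with slide row as a block (0.1005) or in the first slide row alone (0.143).

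Collagen receptors and uptake receptors rose in 9 of 11 cases, with a median of 1.31, where 28.3% of all genes tested rose. The collagen uptake receptor Mrc2 rose 3.31-fold, the receptor kinase Ddr2 3.01-fold and the mannose receptor Mrc1 2.68-fold. The platelet receptors Gp6 and Itga2 had log2 changes of 0.46 and 0.30 and did not pass. Of the collagenases and gelatinases, 4 of 6 rose, with a median of 1.39. The gelatinase Mmp2 had 2.65, 2.73 and 2.48 in irradiated and 0.11, -0.22 and -0.17 in unirradiated spleen, a 6.58-fold rise (adjusted p = 5.48e-05). Mmp13, a collagenase, rose 5.80-fold and the lysosomal collagenase Ctsk 2.94-fold. The neutrophil enzymes Mmp9 and Mmp8 had log2 changes of 0.66 and 0.08 and did not pass, except Mmp9 without unirradiated array 1 (1.01, adjusted p = 0.0422). On the spike-in scale, where 18.0% of all genes tested rose, 9 of the processing and crosslinking genes and 7 of the fibril-binding genes rose. So did 13 of the basement membrane, 7 of the receptor and 4 of the collagenase genes.

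**Figure D4:**
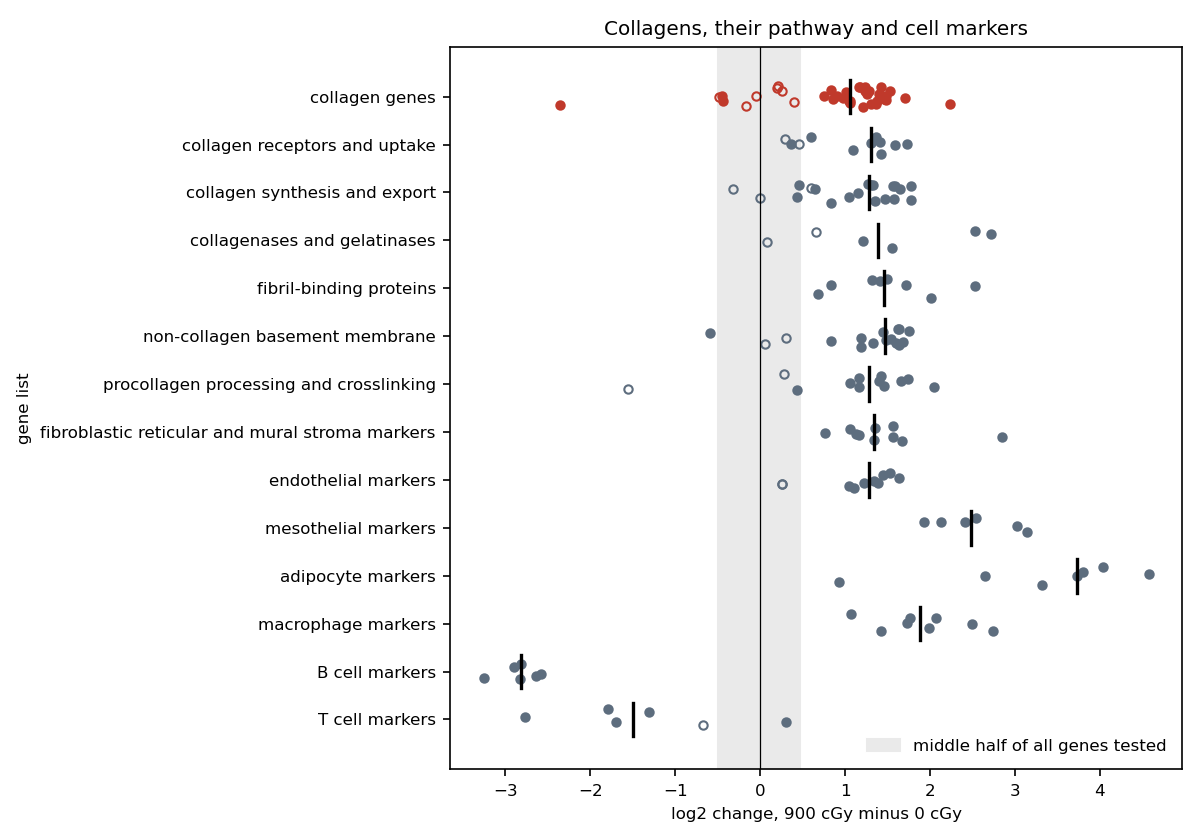
Log2 change, 900 cGy minus 0 cGy (x axis), of each tested gene of the collagens, of the lists of genes that act on collagen and of cell markers (y axis). Filled points passed the test, black bars are medians and the grey band spans the quartiles of all genes tested (-0.49 to 0.47).

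Markers of cells that make matrix moved with the collagens, and so did markers of other cells. The counts stand beside 28.3% of all genes tested that rose and 31.0% that fell. Fibroblastic reticular and mural stroma markers rose in 10 of 10 cases (median log2 change 1.35), and their mean level was 2.25 to 2.38 on irradiated and 0.74 to 1.12 on unirradiated arrays. Endothelial markers rose in 8 of 10 cases (median 1.28), with mean levels of 2.67 to 2.74 and 1.53 to 1.68 in the same order of groups. Macrophage markers rose in 8 of 8 cases (median 1.88, mean levels 5.63 to 5.73 and 3.69 to 3.88). B cell markers fell in 6 of 6 cases (median -2.82, mean levels 1.29 to 1.50 and 4.07 to 4.50), and erythroid markers fell in 6 of 6 (median -6.75). T cell markers fell in 4 of 6 cases and rose in 1, with a median of -1.50. The part of these shifts in the collagen changes was not tested.

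Markers of tissue around the spleen also differed between the groups, where 28.3% of all genes tested rose. Mesothelial markers rose in 6 of 6 cases (median 2.48), with mean levels of 0.89 to 1.22 in irradiated and -2.41 to -0.85 in unirradiated spleen. Adipocyte markers rose in 7 of 7 (median 3.74, mean levels 1.76 to 1.98 and -1.73 to -1.06). Exocrine pancreas markers rose in 9 of 10 (median 6.90), with mean levels of 6.82 to 7.22 on irradiated arrays and -4.13, 3.45 and 1.08 on unirradiated arrays 1, 2 and 3. Each marker of these 3 lists was well above background on at least 1 array of each group. On unirradiated array 1 the pancreas markers Cela2a and Pnlip were near the lowest signals (-8.26 and -7.12), so its mean pancreas level is no firm value. On unirradiated array 2 minus array 1, the mean log2 level of the mesothelial markers was -1.24 and that of the adipocyte markers 0.67. For the 37 collagens the median of this difference was -0.11 (range -1.20 to 0.78). These differences came from 1 pair of arrays, left out unirradiated array 3 and were not tested. The part of mesothelial, adipocyte and pancreas transcripts in the collagen changes was not tested.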

How the data were processed

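Each array held 1 colour. The authors scanned it and extracted spots with Agilent Feature Extraction 10.5.1.1, per the file headers. The deposited scanner files hold each spot's intensity after background subtraction. The authors' deposited table holds log2 values. Against the scanner values it matched the 75th percentile scaling with each probe centred on its median over the arrays (r of at least 0.999957). Its column medians were -0.0251, 0.0182 and -0.0082 for irradiated arrays and 0.0472, -0.00592 and -0.0467 for unirradiated arrays. Its scale, centring and direction were settled by this match. Probe positions are those of the headers' annotation (mm9).

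Here log2 processed signal was scaled to each array's 75th percentile, outlier spots were left out and spots of a probe were averaged. Of 462 collagen spot values, 1 was an outlier (a Col4a1 spot on unirradiated array 1) and none was saturated. Each gene was represented by its brightest probe, filtered on background and fitted with limma 3.58.1 (R 4.3.3), with Benjamini-Hochberg adjustment and a threshold of 0.05. The fit was tested on simulated data. Gene names came from the files or, by accession (27235 probes), symbol (3581) or synonym (565), from RefSeq, and 24300 probes kept the file's name. Named genes were all fibrillar and type IV members, the 12 other collagens with the largest change and 3 genes of each list. The remaining collagens, and some list members that fell or did not pass, were named after their values were seen. The members and lists were chosen with earlier results of these data known. Replicates were compared, and none was a duplicate (r of 0.9884 to 0.9977 within groups).

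Replicate numbers were not used to pair the arrays in the main fit. Deviations of same-numbered arrays correlated at 0.07, 0.12 and -0.00, and those of other pairs at -0.14 to 0.07. Irradiated arrays 1 and 2 each correlated best with the unirradiated array of the same number. Correlations this weak cannot decide whether the pools were paired.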

Additional observations from a re-analysis of the deposited data

How the results depend on the processing

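The 17 alternatives changed background correction, scaling, the filter, the probe rule, blocks and arrays, and 23 of the 27 collagen rises kept their direction and passed under all of them. None of the 3 falls did. Over all genes, 4798 rose under spike-in scaling and 4473 in slide row 1 alone, where 3787 fell. The count of collagens that fell was 1 under normexp with percentile scaling, 5 under spike-in scaling and 1 in slide row 1 alone. No fibrillar collagen (0) fell in slide row 1 alone. The type IV count that fell was 1 under spike-in scaling and 1 with the replicate block. Other collagens that fell numbered 0 under normexp with percentile scaling, and 1 under normexp with quantile normalization, median scaling, no filter, the filter on all 6 arrays, the slide row block and slide row 1 alone. In the lists of genes that act on collagen, 2 fell under normexp with quantile normalization, 3 under spike-in scaling and 2 under median scaling. The share of all genes tested that fell was 29.4% under normexp with percentile scaling and 31.2% under normexp with quantile normalization. It was 40.6% under spike-in scaling, 30.4% under median scaling and 22.1% with no filter. With the filter on all 6 arrays it was 31.8%, and with the replicate block 28.4%. The mean over probes reversed Col4a6 (0.51) and P3h1 (0.43). Leaving out 1 array at a time gave 6494 to 7759 genes that rose and 6802 to 8976 that fell. It gave 27 to 28 and 2 to 3 collagens, 6 to 6 and 1 to 1 fibrillar, 3 to 4 and 0 to 0 type IV, 18 to 18 and 1 to 2 other collagens, and 60 to 62 and 0 to 2 list genes. With the replicate block, 7146 genes rose and 7562 fell, and Col4a6 passed as a fall (-0.48, adjusted p = 0.0243). Array 3 at 900 cGy correlated best with unirradiated array 2, and arrays 1 and 2 at 900 cGy with the unirradiated array of the same number. Dim probes limit Col6a6, Col13a1, Col4a3 and Col19a1, whose signal was not above background on all arrays.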

Other observations

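Emid2, the name these arrays give to the gene now called Col26a1, lay outside the naming rule. Its log2 change was 1.32 ± 0.11 (SE, adjusted p = 0.000146, limma), in the range of the collagens that rose.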
